A study of Rattus norvegicus with 84 samples.

Results

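Slc19a3, Slc40a1 and Mfsd2a encode 3 membrane transporters that are studied at the blood-brain barrier, the layer of tightly joined endothelial cells that decides what passes between blood and brain tissue. They are 3 of the 13337 genes named on the array, and each is measured by 1 probe (ILMN_1352427 for Slc19a3, ILMN_1351485 for Slc40a1 and ILMN_1360239 for Mfsd2a). The genes were selected on measured values of these arrays. Slc19a3 and Slc40a1 were chosen by their differences between SAHA and vehicle rats on the arrays labelled DG, and Mfsd2a was chosen by its difference between RPC and home cage rats given SAHA on the same arrays. Those differences are therefore given as descriptions, without a p-value.

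The study measured RNA of 3 microdissected hippocampal subfields, labelled CA1, CA3 and DG, in 28 male F344xBN hybrid rats aged 7 months and housed singly. SAHA (vorinostat), an inhibitor of histone deacetylases, was injected intraperitoneally at 50 mg/kg in DMSO. In each subfield the 4 groups of 7 arrays are SAHA rats kept in the home cage, vehicle rats kept in the home cage, SAHA rats given a session of the redundant place-cue (RPC) water maze, and vehicle rats given that session. Vehicle rats received DMSO alone, and every rat died 90 min after its injection. RPC rats were injected 10 min before the maze and had also been trained in a water maze a week before, which home cage rats had not, so that "RPC" stands for the session, its closing probe trial and the training together. The samples are bulk tissue, in which fewer cells of a type and less RNA per cell cannot be told apart.

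The cell-type markers went against 2 of the 3 region labels. All 6 CA1 pyramidal markers checked (Wfs1, Mpped1, Fibcd1, Pou3f1, Man1a1 and Ccn3) had their highest mean on the arrays labelled DG, and 3 of 4 granule-cell markers checked (Prox1, C1ql2 and Sema5a, but not Pkp2) had theirs on the arrays labelled CA1. The 3 CA3 markers checked were highest on the arrays labelled CA3. The labels are kept here as given, as "labelled CA1" and "labelled DG", and each comparison of drug or behaviour lies within 1 label. Within a label, the drug and the maze comparisons share groups of arrays. Of all probes, 35.35% to 49.98% were detected per array (detection p under 0.01). By a limit of 5 median absolute deviations on each array's median correlation within its region, 8 arrays stood low, 3 labelled CA1 and 5 labelled CA3. They include replicate 6 of the vehicle RPC group labelled CA3, whose median correlation of 0.814 was the lowest. Member differences within 1 drug or behaviour and interactions that this array moves are given with and without it. Correlations between genes are given only with all arrays.

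Thiamine (vitamin B1) enters cells through the carriers of the SLC19 family, among them Slc19a3, and is phosphorylated to the cofactor of pyruvate dehydrogenase, 2-oxoglutarate dehydrogenase and transketolase; loss of SLC19A3 in people causes a biotin- and thiamine-responsive disease of the basal ganglia. Slc40a1 (ferroportin) is the known iron exporter of mammalian cells, and the hormone hepcidin closes it and sends it for degradation. Mfsd2a is a sodium-dependent symporter of brain endothelium that carries lysophosphatidylcholine, and with it the omega-3 fatty acid DHA, into the brain, and it keeps transport by vesicles across the endothelium low.

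On the rat assembly GRCr8, RefSeq places Slc19a3 (Entrez 316559) on chromosome 9 at 91723799 to 91747499, Slc40a1 (Entrez 170840) on chromosome 9 at 55525457 to 55633463, and Mfsd2a (Entrez 298504) on chromosome 5 at 140510933 to 140525828. The RefSeq promoter table for GRCr8 holds 2 of the 3 members, Slc19a3 and Slc40a1, the pair that differed between SAHA and vehicle rats in opposite directions. The 250 bases before their annotated start are shown 5′ to 3′ on the gene's own strand, which is the minus strand for both, at chr9:91747130-91747379 for Slc19a3 and chr9:55543461-55543710 for Slc40a1. Both windows lie inside the gene's RefSeq span, so that another transcript model begins further upstream. Capitals mark matches on either strand to TGACTCA (the AP-1 motif), TGACGTCA (the cAMP response element), CACGTG (the E-box), GGGCGG (the GC box) or TATAAA (the TATA box), and no marked motif overlapped another.
Slc19a3: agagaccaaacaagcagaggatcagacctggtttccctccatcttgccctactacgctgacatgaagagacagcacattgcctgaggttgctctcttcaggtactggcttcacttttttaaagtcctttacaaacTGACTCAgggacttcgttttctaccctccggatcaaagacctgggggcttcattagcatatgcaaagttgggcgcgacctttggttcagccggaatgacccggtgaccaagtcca
Slc40a1: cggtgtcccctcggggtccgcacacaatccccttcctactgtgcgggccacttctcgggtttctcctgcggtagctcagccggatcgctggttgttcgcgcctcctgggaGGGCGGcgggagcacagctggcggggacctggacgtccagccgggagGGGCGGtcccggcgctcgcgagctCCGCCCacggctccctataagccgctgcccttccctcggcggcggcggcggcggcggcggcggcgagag
The Slc19a3 window held 1 TGACTCA and none of the other motifs. TGACTCA was found in 4.05% of the 33469 windows of the same length in the table. The Slc40a1 window held 3 matches to GGGCGG or its reverse complement, which was found in 30.5% of all windows, and none of the other motifs. GC content was 50.0% in the Slc19a3 window and 74.0% in the Slc40a1 window, against a median of 51.2% over all windows. TGACGTCA, CACGTG and TATAAA were found in 1.59%, 5.59% and 12.9% of all windows.

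The probe of Slc19a3, the thiamine importer, lay close to background. Levels are log2 of the normalized probe signal, and an array counts as detecting a gene when the detection p of its probe is under 0.01. On the arrays labelled DG, home cage rats given SAHA had a lowest, median and highest Slc19a3 level of 5.39, 5.66 and 5.94, against 6.06, 6.13 and 6.44 in home cage rats given vehicle. All 7 SAHA rats lay below every vehicle rat, the probe was detected on 3 of 7 SAHA arrays and on 7 of 7 vehicle arrays, and the groups did not overlap. Such a lack of overlap was seen in 0.129% of the 10858 probes tested there, and nothing is read from that share, since this difference chose the gene. The difference was -0.55 ± 0.10 (SE, n = 7 each), where 0.0276% of probes passed the threshold (adjusted p under 0.05).

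After the RPC session the Slc19a3 levels were 5.20, 5.39 and 5.80 in SAHA rats labelled DG, against 5.79, 6.02 and 6.33 in vehicle rats. The highest SAHA array lay just inside the vehicle range and the other 6 lay below it. The probe was detected on 1 of 7 SAHA arrays and on 7 of 7 vehicle arrays. The difference was -0.59 ± 0.10 (SE, n = 7 each) (0.0829% of probes passed). With most SAHA arrays of both behaviours below the detection limit, no fold is given. Without background correction the 2 drug differences were -0.30 and -0.32, and on the scale of the deposited z-scores they were -0.35 and -0.38, so that the size of the change in this dim probe depends on how background is handled.

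**Figure D1:**
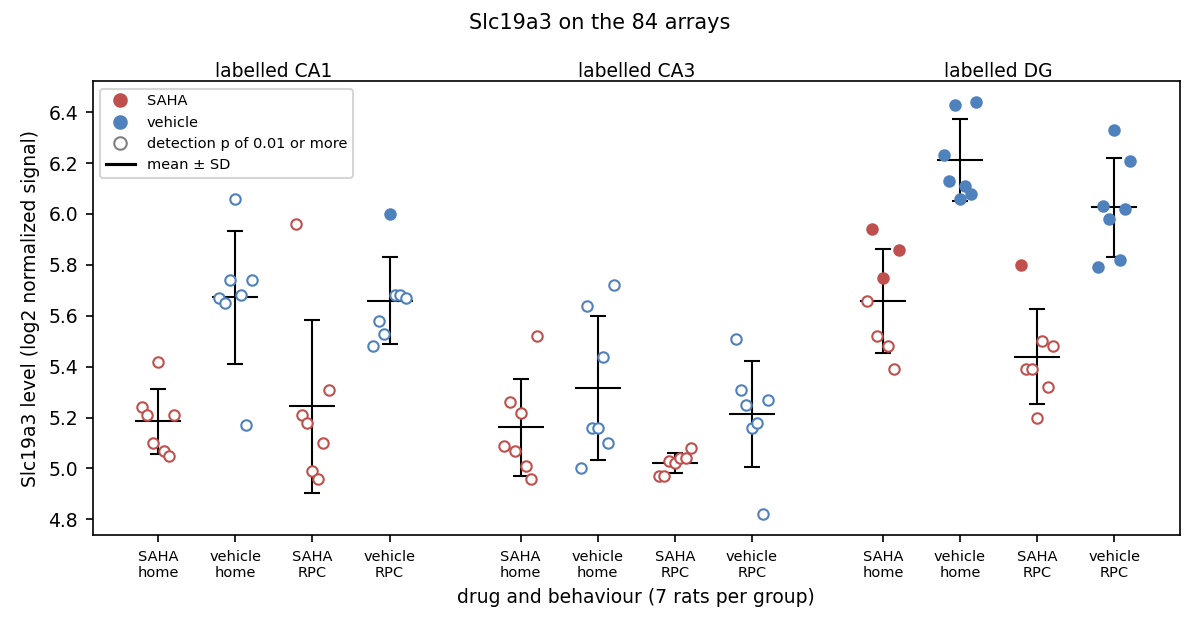
Slc19a3 level (vertical axis, log2 normalized signal) on each of the 84 arrays, by labelled region, drug and behaviour; bars are the mean ± SD of 7 rats and open circles are arrays with a detection p of 0.01 or more. In labelled DG the SAHA arrays lie between 5.20 and 5.94 and the vehicle arrays between 5.79 and 6.44, and nearly all arrays labelled CA1 and CA3 are open circles.

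In labelled CA1, Slc19a3 was detected on 1 of 28 arrays and in labelled CA3 on 0 of 28, so it was not tested there. Its levels in labelled CA1 were 5.05, 5.21 and 5.42 in SAHA home cage rats, against 5.17, 5.68 and 6.06 in vehicle home cage rats. After RPC they were 4.96, 5.18 and 5.96 in SAHA rats, against 5.48, 5.67 and 6.0 in vehicle rats. All 7 SAHA home cage arrays lay below the vehicle mean, but a vehicle array at 5.17 lay among them, and SAHA RPC replicate 1 at 5.96 lay among the vehicle values. At the looser limit of a detection p under 0.05, chosen after seeing the data, the probe was found on 0 of 7 SAHA and 6 of 7 vehicle arrays of home cage rats, and on 1 of 7 SAHA and 7 of 7 vehicle arrays of RPC rats.

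A fit without the filter on dim probes took these arrays in. There the mean over both behaviours, a comparison added after seeing the data, passed the threshold in labelled CA1 (limma, adjusted p = 0.034). The mean level was 5.22 ± 0.25 in SAHA rats and 5.67 ± 0.21 in vehicle rats (SD, n = 14 each). The share of all probes that passed was not counted in this fit, and it was 0.0907% in the fit with the filter. The home cage (adjusted p = 0.403) and RPC (adjusted p = 0.304) differences in labelled CA1 did not pass singly. No fold is given, as neither group is above background. In labelled CA3 the mean level was 5.09 ± 0.15 in SAHA rats and 5.26 ± 0.25 in vehicle rats, and without the filter the adjusted p of the mean difference was 0.99. Beside Slc19a3 in labelled CA1, 10 of 13 tested endothelial markers lay below 0 between SAHA and vehicle home cage rats (median -0.10) and 7 of 13 in RPC rats (median -0.03), and their part in the result was not tested.

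The maze comparison of Slc19a3 did not choose it, but it uses the same labelled DG arrays as the drug differences that did. The probe was detected on 1 of 7 SAHA RPC and 3 of 7 SAHA home cage arrays. It entered the test through the vehicle arrays, where it was detected on 7 of 7 in each behaviour. In labelled DG the mean was 5.44 ± 0.19 in RPC rats and 5.66 ± 0.21 in home cage rats given SAHA (SD, n = 7 each), a difference of -0.22 ± 0.10 (SE; limma, adjusted p = 0.308), where 1.45% of probes passed. In vehicle rats it was 6.03 ± 0.19 with RPC and 6.21 ± 0.16 in the home cage, a difference of -0.18 ± 0.10 (SE; adjusted p = 0.648), where 0.322% of probes passed. The mean of both, a comparison added after seeing the data, was -0.20 ± 0.07 (adjusted p = 0.0977), where 4.05% of probes passed. No maze difference of Slc19a3 passed the threshold in labelled DG. With most SAHA arrays below the detection limit, the comparison in SAHA rats and the mean cannot show whether the level changed.

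Slc40a1, the iron exporter, was detected on all 84 arrays. In labelled DG its lowest, median and highest levels were 7.67, 7.89 and 8.06 in SAHA home cage rats, against 7.14, 7.38 and 7.63 in vehicle home cage rats. Every SAHA rat lay above every vehicle rat. Groups without overlap were seen in 0.129% of the 10858 probes tested there, and nothing is read from that, since this difference chose the gene. The difference was 0.48 ± 0.09 (SE, n = 7 each), 1.39-fold (0.0276% of probes passed). After RPC the levels were 7.33, 7.71 and 7.84 in SAHA rats, against 6.97, 7.19 and 7.60 in vehicle rats, and 5 of 7 SAHA rats lay above all vehicle rats. The highest vehicle array, replicate 7 at 7.60, stood apart from the other 6, which reached 7.22. The difference was 0.47 ± 0.09 (SE), 1.38-fold (0.0829% of probes passed). Over both behaviours the difference was 0.47 ± 0.07, and 14 of 14 SAHA arrays lay above the vehicle mean (0.718% of probes passed in this mean comparison).

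**Figure D2:**
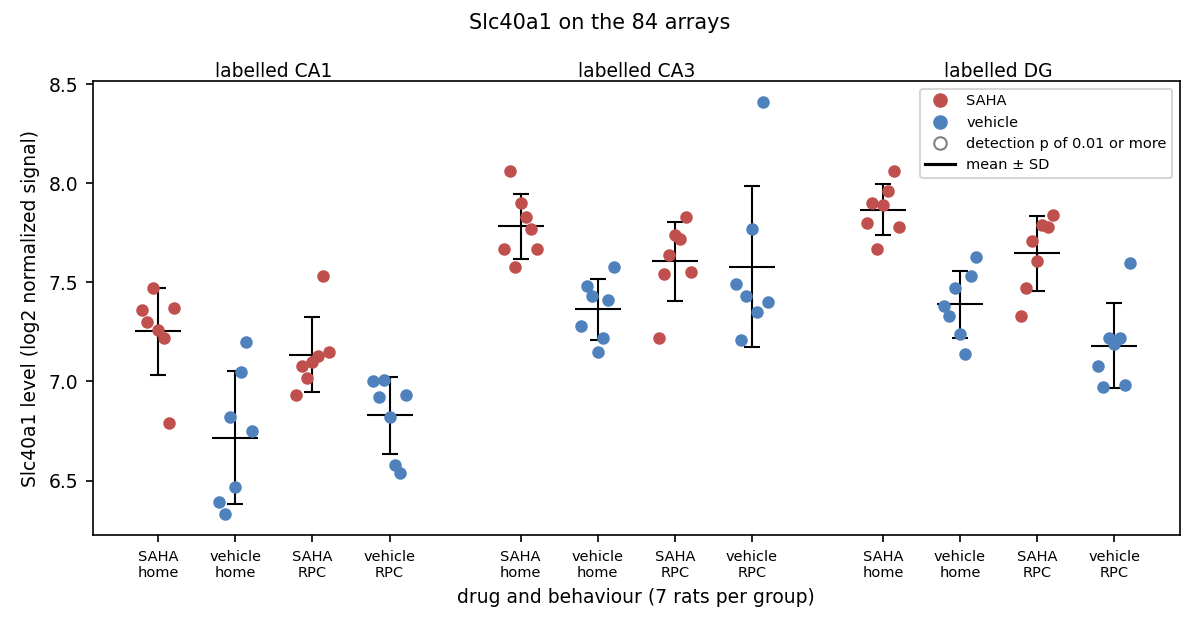
Slc40a1 level (vertical axis, log2 normalized signal) on each of the 84 arrays, by labelled region, drug and behaviour, with the mean ± SD of 7 rats; all arrays detected the probe. SAHA group means lie above their vehicle means in every pair, but barely in RPC rats labelled CA3, which include the vehicle array at 8.41. The arrays of SAHA and vehicle rats overlap except in home cage rats labelled DG and, narrowly, CA3.

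The arrays labelled CA1 and CA3 took no part in that choice, but come from the same 28 rats. In labelled CA1, Slc40a1 levels were 6.79, 7.30 and 7.47 in SAHA home cage rats, against 6.33, 6.75 and 7.20 in vehicle home cage rats. 6 of 7 SAHA rats lay above all vehicle rats, and SAHA replicate 6 at 6.79 was far below the others. The difference was 0.53 ± 0.13 (SE, 95% interval 0.27 to 0.80), rank 9 by p of 9919 probes, and it did not pass the threshold after adjustment (limma, adjusted p = 0.247), where 0.0101% of probes did. Its adjusted p was 0.0267 with array weights and lay between 0.0267 and 0.989 over the alternatives.

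In RPC rats labelled CA1 the levels were 6.93, 7.10 and 7.53 with SAHA, against 6.54, 6.92 and 7.01 with vehicle, and 6 of 7 SAHA rats again lay above all vehicle rats. The difference was 0.30 ± 0.13 (SE, 95% interval 0.04 to 0.57; adjusted p = 0.396), where 0.0605% of probes passed. The mean over both behaviours was 0.42 ± 0.09 (95% interval 0.23 to 0.61), with 14 of 14 SAHA arrays above the vehicle mean. This added comparison lay just outside the threshold (adjusted p = 0.0506), where 0.0907% of probes passed, and it passed in 5 of the 9 alternative fits and in 4 of 28 fits without 1 array. The adjusted p was 0.0235 without SAHA home cage replicate 6, 0.0372 without SAHA RPC replicate 1, 0.043 without vehicle home cage replicate 5 and 0.0186 without vehicle home cage replicate 6.

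In labelled CA3, Slc40a1 levels were 7.58, 7.77 and 8.06 in SAHA home cage rats, against 7.15, 7.41 and 7.58 in vehicle home cage rats. All 7 SAHA rats lay above every vehicle rat, if only just, since both ends round to 7.58 (0.0378% of probes were without overlap in this comparison). The difference was 0.42 ± 0.14 (SE, 95% interval 0.14 to 0.70), rank 6 of 10594 probes, with an adjusted p of 1, where 0.00944% of probes passed. With array weights the adjusted p was 0.00112. The SE, as in every fit per region, pools the spread of all 4 groups. The SD was 0.16 in SAHA and 0.15 in vehicle home cage rats, against 0.20 in SAHA and 0.40 in vehicle RPC rats. All arrays of low correlation labelled CA3 are in the RPC groups. In RPC rats labelled CA3 the levels were 7.22, 7.64 and 7.83 with SAHA, against 7.21, 7.43 and 8.41 with vehicle, and the groups overlapped. The difference was 0.03 ± 0.14 (SE, adjusted p = 0.928), where 0% of probes passed in the limma fit and 538 of 10594 had an unadjusted p under 0.05. Without vehicle RPC replicate 6, the array at 8.41, it was 0.16 (adjusted p = 1), and without all arrays of low correlation 0.17 (adjusted p = 0.873). The mean over both behaviours was 0.22 ± 0.10 (adjusted p = 0.956), where 0.00944% of probes passed, and the adjusted p was 0.0375 with array weights.

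The Slc40a1 mean was higher in the SAHA group in 6 of 6 comparisons. The 2 in labelled DG chose the gene, none of the 4 others passed the threshold, and in RPC rats labelled CA3 the difference ran from -0.04 to 0.16 when single arrays were left out. Whether the drug difference depends on the maze session was tested outside labelled DG. The interaction was -0.23 ± 0.18 in labelled CA1 (adjusted p = 0.72), where 0.0101% of probes passed, and -0.39 ± 0.19 in labelled CA3 (adjusted p = 0.884), where 0% passed in the limma fit and 232 of 10594 had an unadjusted p under 0.05. Without the array at 8.41 the interaction in labelled CA3 was -0.26 (adjusted p = 1).

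The maze difference of Slc40a1 in labelled DG was below 0 in both drug groups. In SAHA rats the mean was 7.65 ± 0.19 with RPC and 7.86 ± 0.13 in the home cage (SD, n = 7 each), a difference of -0.22 ± 0.09 (SE; limma, adjusted p = 0.281). In vehicle rats it was 7.18 ± 0.22 with RPC and 7.39 ± 0.17 in the home cage, a difference of -0.21 ± 0.09 (SE; adjusted p = 0.537). The mean of both was -0.21 ± 0.07 (adjusted p = 0.0668), with an adjusted p of 0.0169 without the vehicle RPC array at 7.60 and 0.0444 without vehicle HC replicate 5. In labelled CA1 the difference was -0.12 ± 0.13 in SAHA rats (adjusted p = 0.729), where 2.51% of probes passed, and 0.11 ± 0.13 in vehicle rats (adjusted p = 0.632), where 6.44% passed. In labelled CA3 it was -0.18 ± 0.14 in SAHA rats (adjusted p = 0.999), where 0.0283% passed, and 0.22 ± 0.14 in vehicle rats (adjusted p = 0.311), where 0.0189% passed. The last of these was 0.08 without the array at 8.41. A test of the maze difference among the 3 regions, added after seeing the data, gave an adjusted p of 0.287 for Slc40a1, where 11.3% of probes passed.

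Mfsd2a, the lysophospholipid carrier, was detected on all 84 arrays. In labelled DG its lowest, median and highest levels were 9.08, 9.17 and 9.31 in RPC rats given SAHA, against 8.63, 8.91 and 9.12 in home cage rats given SAHA, and 5 of 7 RPC rats lay above every home cage rat. The difference was 0.29 ± 0.07 (SE), 1.22-fold, and it is this value that chose the gene. In vehicle rats of the same region, arrays that the choice did not use, the levels were 8.96, 9.13 and 9.21 with RPC, against 8.79, 8.98 and 9.16 in the home cage. All 7 RPC rats lay above the home cage mean and the ranges overlapped. The difference was 0.16 ± 0.07 (SE, 95% interval 0.02 to 0.30), and it did not pass (limma, adjusted p = 0.492). Beside Mfsd2a in SAHA rats labelled DG, 9 of 9 oligodendrocyte markers (median 0.14) and 9 of 10 microglial markers (median 0.13, 2 of them, C1qc and C1qb, past the threshold, where 1.45% of all probes passed) lay above 0 with RPC, and in vehicle rats 8 of 9 (median 0.08) and 7 of 10 (median 0.00) did. Their part in the result was not tested.

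In labelled CA1, Mfsd2a levels were 8.61, 8.87 and 9.08 in RPC rats given SAHA, against 8.35, 8.65 and 8.76 in home cage rats given SAHA, and 6 of 7 RPC rats lay above every home cage rat. The difference was 0.25 ± 0.08 (SE, 95% interval 0.07 to 0.42; adjusted p = 0.124). In vehicle rats the levels were 8.74, 8.89 and 9.06 with RPC, against 8.53, 8.73 and 9.00 in the home cage, a difference of 0.10 ± 0.08 (SE, adjusted p = 0.512). The mean of both was 0.17 ± 0.06 (95% interval 0.05 to 0.29; adjusted p = 0.0542), with 13 of 14 RPC rats above the home cage mean. In that mean comparison 13.7% of all probes passed, so that a call was common there. Its adjusted p was 0.0306 with the replicate number as a block and ran to 0.131 over the alternatives. It passed in 6 of 28 fits without 1 array, with an adjusted p of 0.0292 without SAHA RPC replicate 4, 0.046 without SAHA home cage replicate 3, 0.033 and 0.0351 without vehicle home cage replicates 5 and 6, and 0.0491 without vehicle RPC replicate 2 or 7. Beside it, 9 of 9 astrocyte markers lay above 0 (median 0.11), and 3 passed, Slc4a4 (0.48 ± 0.10, adjusted p = 0.00269), S100b (0.15 ± 0.05, adjusted p = 0.0394) and Gjb6 (0.16 ± 0.05, adjusted p = 0.0423). The mean level of the 9 astrocyte markers ran from 11.22 to 11.44 in SAHA RPC rats, against 11.07 to 11.34 in SAHA home cage rats. In vehicle rats it ran from 11.45 to 11.58 with RPC, against 11.18 to 11.38 in the home cage, a pair that did not overlap. Of single probes, 146 of 9919 were without overlap in that vehicle comparison. Of 13 endothelial markers, Egfl7 passed (0.48 ± 0.11, adjusted p = 0.00558), and Ramp2, Ocln, Tie1 and Itm2a lay below 0. Cldn5, at 0.16 ± 0.05, is given without a test, since it was also picked for likeness to Slc19a3. All 8 tested oligodendrocyte markers lay above 0, and Mobp passed (0.31 ± 0.10, adjusted p = 0.0424). The part of all these markers in the Mfsd2a result was not tested.

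**Figure D3:**
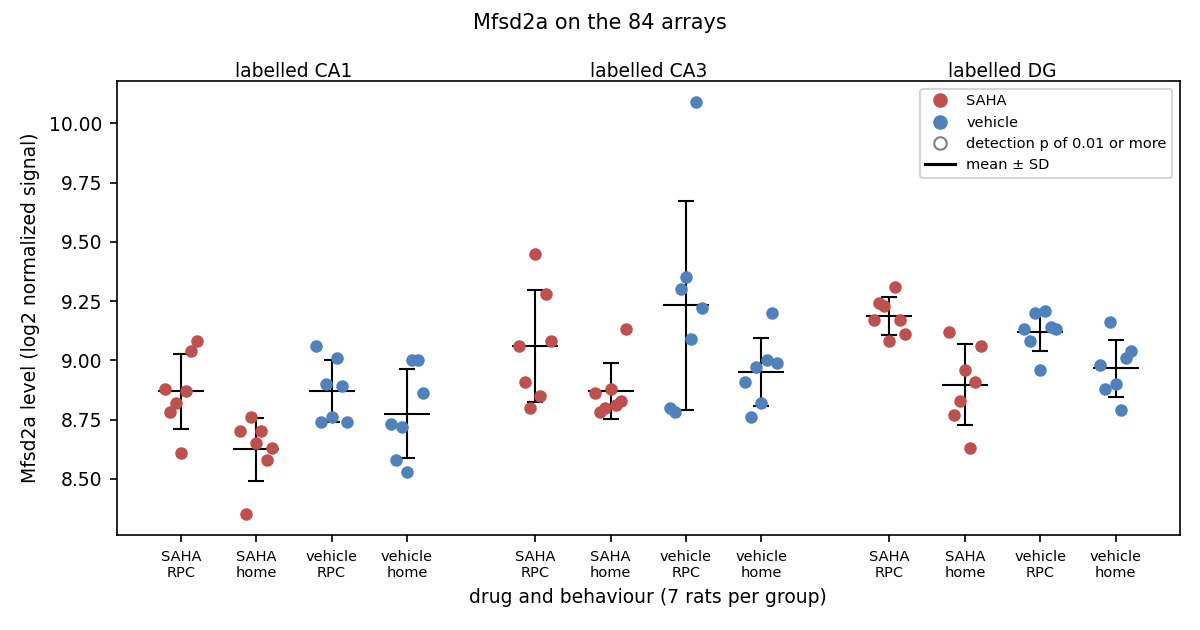
Mfsd2a level (vertical axis, log2 normalized signal) on each of the 84 arrays, by labelled region, drug and behaviour, with the mean ± SD of 7 rats; all arrays detected the probe. RPC group means lie above their home cage means in all 6 pairs, and the vehicle RPC group labelled CA3 has 1 array at 10.09.

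In labelled CA3, Mfsd2a levels were 8.80, 9.06 and 9.45 in RPC rats given SAHA, against 8.78, 8.83 and 9.13 in home cage rats given SAHA, a difference of 0.19 ± 0.14 (SE, adjusted p = 0.999). In vehicle rats they were 8.78, 9.22 and 10.09 with RPC, against 8.76, 8.97 and 9.20 in the home cage, a difference of 0.28 ± 0.14 (SE, adjusted p = 0.253). The array at 10.09 is the one of lowest correlation, replicate 6, and without it the difference was 0.14 (adjusted p = 0.569). Without all arrays of low correlation the 2 differences were 0.07 in SAHA rats and 0.02 in vehicle rats. The mean of both was 0.24 ± 0.10 (adjusted p = 0.207) with all arrays, where 0.123% of probes passed, and 0.05 without the arrays of low correlation.

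No difference between SAHA and vehicle rats passed for Mfsd2a. In labelled DG the mean was 8.90 ± 0.17 in SAHA rats and 8.96 ± 0.12 in vehicle rats of the home cage (SD, n = 7 each), a difference of -0.07 ± 0.07 (SE, 95% interval -0.20 to 0.07; adjusted p = 0.951). With RPC it was 9.19 ± 0.08 in SAHA rats and 9.12 ± 0.08 in vehicle rats, a difference of 0.06 ± 0.07 (95% interval -0.07 to 0.20; adjusted p = 0.961). In labelled CA1 the difference was -0.15 ± 0.08 in home cage rats (adjusted p = 0.787) and 0.00 ± 0.08 in RPC rats (adjusted p = 0.998). In labelled CA3 it was -0.08 ± 0.14 in home cage rats (adjusted p = 1) and -0.17 ± 0.14 in RPC rats (adjusted p = 0.642), and the second was -0.03 (adjusted p = 1) without vehicle RPC replicate 6. The interaction of drug and behaviour was 0.15 ± 0.12 in labelled CA1 (adjusted p = 0.722) and -0.09 ± 0.20 in labelled CA3 (adjusted p = 0.905), where it was 0.05 (adjusted p = 1) without that array.

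**Figure D4:**
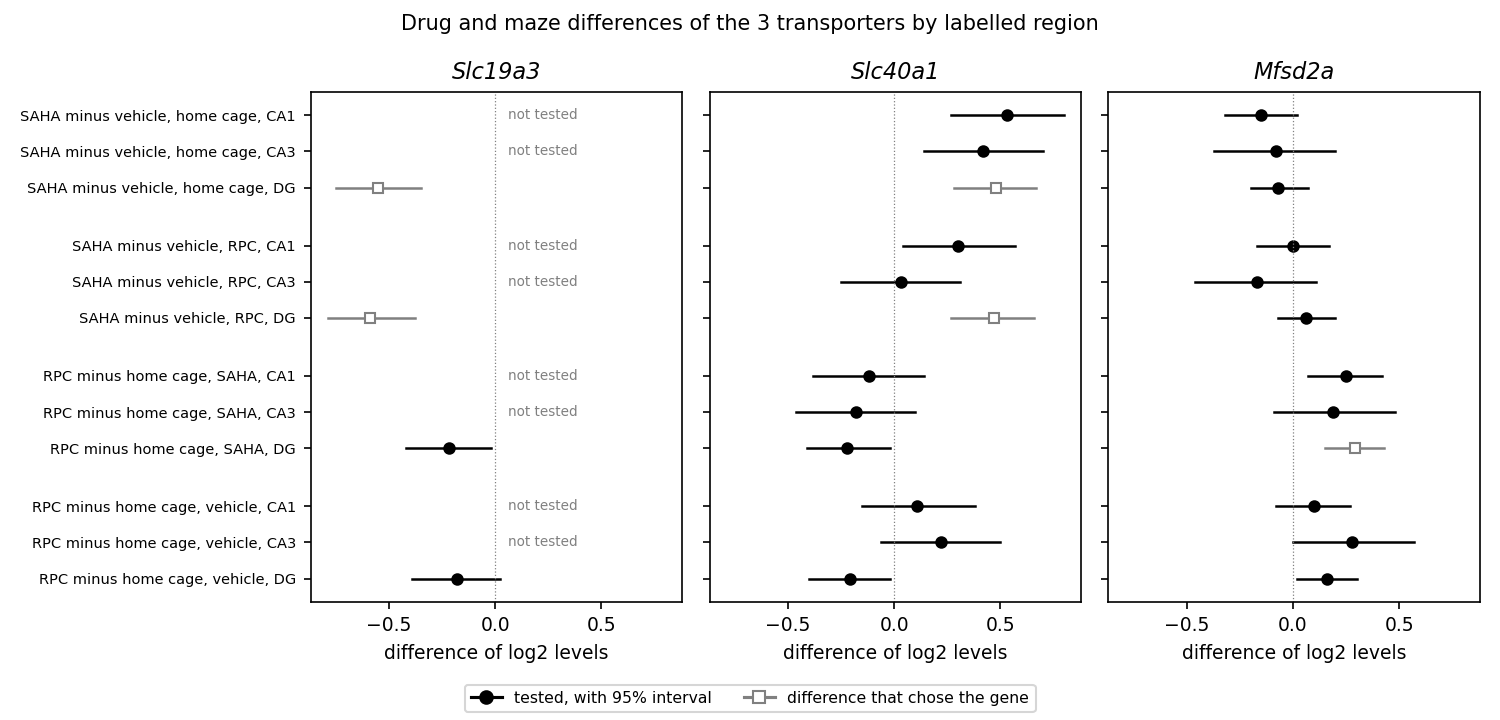
Differences of log2 levels (horizontal axis) with 95% intervals for each member, by comparison and labelled region; open grey squares are differences that chose the gene and carry no test, and "not tested" marks regions in which Slc19a3 was below the detection filter. Slc40a1 drug differences run from 0.03 to 0.53, Mfsd2a maze differences from 0.10 to 0.29, and the Slc19a3 drug differences in labelled DG are -0.55 and -0.59.

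Between the labelled regions, Slc40a1 was lowest in labelled CA1. Its mean level was 6.98 ± 0.32 there, 7.58 ± 0.28 in labelled CA3 and 7.52 ± 0.31 in labelled DG (SD, n = 28 each). Labelled CA1 less labelled DG was -0.54 ± 0.06 (limma over all arrays, adjusted p = 1.5e-12) and labelled CA3 less labelled CA1 was 0.60 ± 0.06 (adjusted p = 1.27e-14). Labelled CA3 and labelled DG did not differ beyond their spread (0.06 ± 0.06, adjusted p = 0.344), and the sign turned on the deposited z-scores (-0.09). Most probes differ between subfields: 72.4% passed for labelled CA1 less DG, 80.7% for CA3 less CA1 and 75.4% for CA3 less DG.

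Mfsd2a was also lowest in labelled CA1. Its mean level was 8.79 ± 0.18 there, 9.03 ± 0.29 in labelled CA3 and 9.04 ± 0.16 in labelled DG. Labelled CA1 less labelled DG was -0.26 ± 0.05 (adjusted p = 6.73e-06) and labelled CA3 less labelled CA1 was 0.24 ± 0.05 (adjusted p = 1.44e-05), and 0.17 to 0.75 over the alternatives. Labelled CA3 less labelled DG was -0.01 ± 0.05 (adjusted p = 0.819), and it was 0.24 with median scaling and -0.11 without the arrays of low correlation, so the scaling sets its sign. Slc19a3 averaged 6.21 in vehicle home cage rats labelled DG, against 5.31 in labelled CA3, where the probe was not above background on any of 7 arrays. That is at least 1.32-fold higher in labelled DG, a bound taken per array from the dimmest probe still detected or from the probe itself where that was brighter. Against labelled CA1, with a mean of 5.67, the bound was at least 1.06-fold, and in vehicle RPC rats it was at least 1.02-fold against labelled CA1. The vehicle arrays labelled DG are the high side of the drug differences that chose Slc19a3, so these bounds are descriptions. In the other 5 pairs, vehicle RPC rats against labelled CA3 and SAHA rats of either behaviour against both regions, the bound was under 1 (0.634 to 0.984), so that no difference between regions was shown there.

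Over the 84 arrays, after the mean of each region was removed, Slc19a3 and Slc40a1 correlated at Pearson r = -0.52, and at -0.20 once the mean of each of the 12 groups was removed as well. Slc40a1 and Mfsd2a correlated at 0.15 and 0.50 in the same 2 ways, and Slc19a3 and Mfsd2a at -0.12 and -0.20. The vehicle RPC array of lowest correlation in labelled CA3 was the highest of its group for both Slc40a1 (8.41) and Mfsd2a (10.09). The correlations were not computed without it. Arrays of 1 region share their dissection but come from different rats, while arrays of different regions come from the same rats. These correlations are therefore descriptions.

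The 5 named genes whose pattern over the 84 arrays was most like that of Slc19a3, among 8115 genes, were Tmem252 (r = 0.52), Yeats4 (0.51), Cldn5 (0.49), Lipt2 (0.49) and Secisbp2 (0.45). Tmem252 encodes a small membrane protein, Cldn5 the claudin that seals endothelial tight junctions, and Lipt2 an enzyme of lipoic acid synthesis. Genes named for likeness to a member were picked on these same arrays, so their differences are given without a test. Tmem252 differed between SAHA and vehicle home cage rats of every labelled region, by -1.74 ± 0.19 in CA1, -1.59 ± 0.22 in CA3 and -1.70 ± 0.21 in DG. Within groups its correlation with Slc19a3 was -0.03, so that the likeness lies in the group means. Its correlation with Slc40a1 over the same arrays was -0.56. The drug differences of Cldn5 in labelled DG were -0.08 ± 0.07 in home cage and -0.12 ± 0.07 in RPC rats.

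For Slc40a1 the 5 nearest genes were Csrp2 (r = 0.65), Cmtm8 (0.64), Nfatc4 (0.64), Tec (0.60) and Abcg2 (0.60). Csrp2 encodes a LIM-domain protein of smooth muscle, Nfatc4 a calcium-dependent transcription factor, Tec a tyrosine kinase and Abcg2 a drug efflux pump of the barrier. Their correlations within groups ranged from 0.51 to 0.65. The drug difference of Csrp2 in labelled DG was 0.44 ± 0.10 in home cage and 0.48 ± 0.10 in RPC rats. That of Abcg2 was 0.22 ± 0.11 in home cage and 0.10 ± 0.11 in RPC rats.

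Mfsd2a had the closest neighbours, Gata2 (r = 0.80), Lsr (0.78), Klf15 (0.76), Il12a (0.76) and Chaf1b (0.75), with within-group correlations of 0.71 to 0.77. These values include the vehicle RPC array labelled CA3 at 10.09 and were not computed without it. Gata2 encodes a transcription factor of blood and endothelial cells, Lsr a receptor for lipoproteins found at tricellular junctions, and Klf15 a transcription factor of metabolism. In SAHA rats labelled DG, the contrast that chose Mfsd2a, the maze difference was 0.46 ± 0.10 for Gata2 and 0.29 ± 0.07 for Il12a. In vehicle rats labelled DG the maze difference was 0.30 ± 0.10 for Gata2 and 0.30 ± 0.07 for Lsr. When the 12 group means were correlated in place of the arrays, the nearest gene was Cog1 for Slc19a3, Fbxo30 for Slc40a1 and Lgi4 for Mfsd2a, and of the 5 nearest only Tec, for Slc40a1, was on both lists.

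The other genes of 4 lists were read beside the members, chosen, like them, with results of these arrays known. The thiamine list holds the other carriers and the enzymes that use the cofactor, and 9 of its 14 genes were on the array. Of these, 7 were tested in labelled CA1 and 9 in each of the other regions, and none passed in any of the 6 drug comparisons. In labelled DG their median drug difference was 0.00 in the home cage and 0.05 with RPC, against medians of 0 over all probes. Hacl1, a thiamine-dependent enzyme of peroxisomes, came nearest in home cage rats, at -0.16 ± 0.06 (adjusted p = 0.661), and its difference was 0.08 ± 0.06 in RPC rats (adjusted p = 0.951). In the mean maze comparison of labelled CA1, Pdhb, a subunit of pyruvate dehydrogenase, passed (-0.12 ± 0.03, adjusted p = 0.0228), which is 1 of 7 genes tested where 13.7% of all probes passed.

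Of the 31 iron genes, 25 were on the array and 18 or 19 were tested per region. None passed in a drug comparison, and in labelled DG the median was 0.05 in home cage and 0.02 in RPC rats. Slc11a2, the importer DMT1, differed by -0.13 ± 0.08 (adjusted p = 0.856) and Heph, the ferroxidase that works with ferroportin, by 0.21 ± 0.15 (adjusted p = 0.907) between SAHA and vehicle home cage rats. In RPC rats Steap2, a metalloreductase, differed by -0.19 ± 0.09 (adjusted p = 0.752) and Hmox1, the haem oxygenase, by 0.12 ± 0.08 (adjusted p = 0.921). With the maze, 1 gene of the list passed, Id1, a target gene of BMP signals, of 19 tested in labelled DG and 18 in labelled CA1. Id1 was 0.60 ± 0.09 higher in SAHA rats (adjusted p = 0.000305) and 0.64 ± 0.09 higher in vehicle rats (adjusted p = 0.000156) of labelled DG, where 1.45% and 0.322% of all probes passed. In labelled CA1 it was 0.51 ± 0.11 (adjusted p = 0.00854) and 0.68 ± 0.11 (adjusted p = 6e-04) higher, where 2.51% and 6.44% passed. Its mean maze difference was 0.62 ± 0.07 in labelled DG (adjusted p = 2.21e-07), where 4.05% passed, and 0.60 ± 0.08 in labelled CA1 (adjusted p = 8.89e-06), where 13.7% did.

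Of the 26 genes of lipid uptake and handling, 22 were on the array and 20 or 21 were tested per region. None passed in a drug comparison. In RPC against home cage rats given SAHA in labelled CA1, Acsl4, which activates arachidonic acid, rose (0.56 ± 0.13, adjusted p = 0.0181) and Slc27a4, a fatty acid transport protein, fell (-0.40 ± 0.09, adjusted p = 0.0129). These were 2 of 21 genes tested, where 2.51% of all probes passed. In the mean maze comparison of labelled CA1 the same 2 genes passed (0.46 ± 0.09 for Acsl4, adjusted p = 0.00193, and -0.34 ± 0.06 for Slc27a4, adjusted p = 0.000832). That was again 2 of 21 genes, where 13.7% of all probes passed. In labelled DG, where Mfsd2a was chosen, none of 21 lipid genes passed with the maze, and the median was 0.02 in SAHA rats and 0.01 in vehicle rats.

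Of 24 other carriers of the barrier, 19 were on the array and 15 to 17 were tested per region. None passed in a drug comparison within 1 behaviour. Slc7a5, the large neutral amino acid carrier, differed by 0.37 ± 0.08 between SAHA and vehicle RPC rats labelled DG (adjusted p = 0.0819), where 0.0829% of all probes passed. In the mean over behaviour it rose (0.24 ± 0.06, adjusted p = 0.044), where 0.718% passed. With the maze, Slc6a6, the taurine carrier, rose in SAHA rats labelled DG (0.54 ± 0.12, adjusted p = 0.0114), where 1.45% of all probes passed. Slc38a3, a glutamine carrier, fell in vehicle rats labelled CA1 (-0.51 ± 0.15, adjusted p = 0.035), 1 of 15 genes tested where 6.44% of all probes passed. In the mean maze comparison of labelled CA1, Slc7a1, a carrier of cationic amino acids, was 0.51 ± 0.15 higher (adjusted p = 0.0268) and Slc38a3 differed by -0.32 ± 0.11 (adjusted p = 0.0431), 2 of 15 genes where 13.7% of all probes passed. In that of labelled DG, Slc6a6 (0.38 ± 0.08, adjusted p = 0.00679) and Slc3a2, the partner chain of Slc7a5 (0.12 ± 0.03, adjusted p = 0.033), passed, 2 of 17 genes where 4.05% did. In labelled CA3 no gene of the 4 lists passed in a drug or maze comparison within 1 behaviour or drug, and Id1 rose in the mean maze comparison (0.37 ± 0.07, adjusted p = 0.0158), where 0.123% of probes passed.

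**Figure D5:**
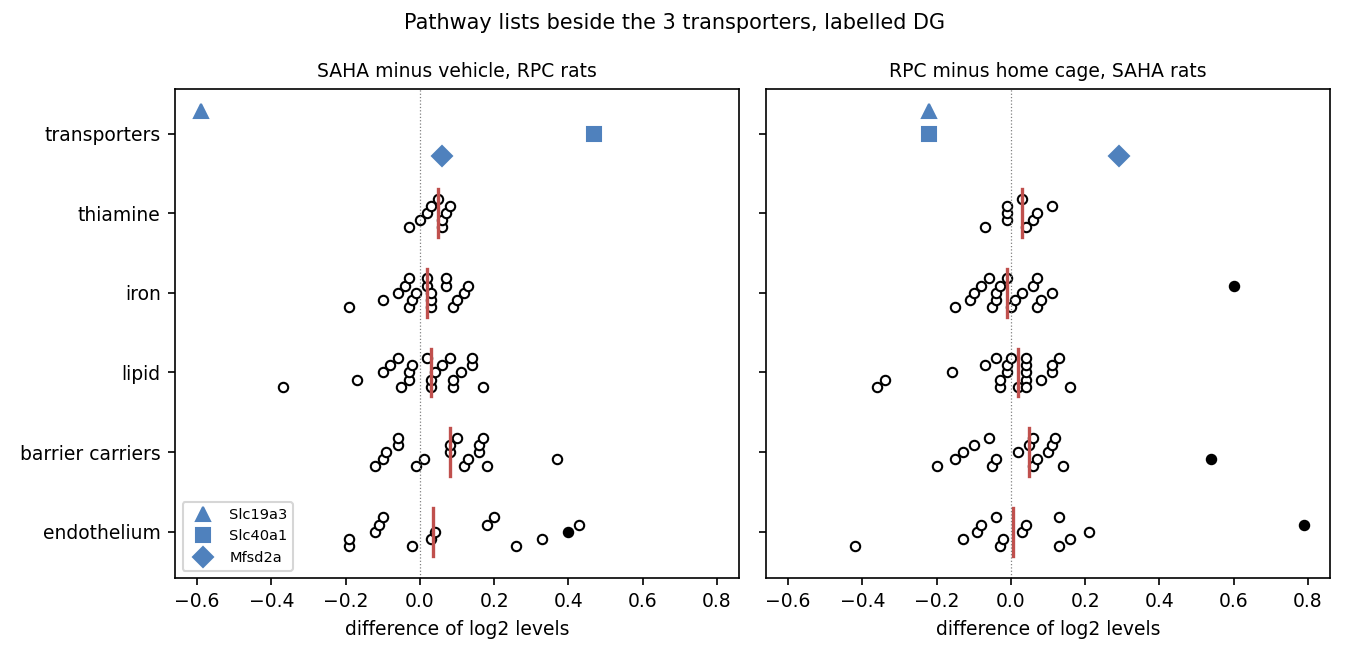
Differences of log2 levels (horizontal axis) on the arrays labelled DG for SAHA less vehicle in RPC rats (left) and RPC less home cage in SAHA rats (right), for the 3 members (blue) and each tested gene of 5 lists; filled circles passed the threshold and red lines are list medians. Slc19a3 at -0.59 and Slc40a1 at 0.47 lie outside the list genes, which run from -0.37 to 0.43, in the drug comparison that chose them, and Id1 at 0.60, Slc6a6 at 0.54 and Egfl7 at 0.79 lie above Mfsd2a at 0.29 in the maze comparison.

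Markers of vessels and of the tissues around them were read beside these values. Of 19 endothelial markers, 16 were on the array and 14 were tested in labelled DG. Between SAHA and vehicle rats, 8 lay above 0 and 6 below in both behaviours, with medians of 0.01 in home cage and 0.03 in RPC rats. Tie1, an endothelial receptor kinase, passed, at 0.40 ± 0.08 in RPC rats (adjusted p = 0.0336), where 0.0829% of all probes did. In labelled CA1, Cldn5 was lower with SAHA in RPC rats (-0.36 ± 0.07). That difference is given without a test, as Cldn5 was also picked on these arrays for likeness to Slc19a3. With the maze in SAHA rats Egfl7, an endothelial secreted protein, was 0.79 ± 0.11 higher in labelled DG (adjusted p = 0.000111), where 1.45% of all probes passed. In labelled CA1 it was 0.80 ± 0.16 higher (adjusted p = 0.00685), where 2.51% passed. In SAHA rats labelled DG 7 markers lay above 0 and 7 below with the maze, and the median was 0.01. The mean level of the 14 in labelled DG ran from 8.34 to 8.43 in SAHA RPC rats, 8.23 to 8.42 in SAHA home cage rats, 8.18 to 8.38 in vehicle RPC rats and 8.14 to 8.42 in vehicle home cage rats.

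Fibroblast markers of the meninges were read beside Slc40a1. Of 11 such genes 10 were on the array and 7 were tested in labelled DG, and all 7 lay above 0 between SAHA and vehicle rats, with medians of 0.15 in home cage and 0.12 in RPC rats, though none passed. With the maze 6 of 7 lay below 0 in SAHA rats (median -0.12) and 7 of 7 in vehicle rats (median -0.09). Their mean level ran from 8.07 to 9.27 in SAHA home cage rats, against 8.08 to 8.53 in vehicle home cage rats, and from 8.15 to 8.39 in SAHA RPC rats, against 7.97 to 8.28 in vehicle RPC rats. In labelled CA1, where the Slc40a1 drug differences were 0.53 and 0.30, 5 of the 6 tested fibroblast markers lay below 0 in both behaviours (medians of -0.09 and -0.14). In labelled CA3, where the Slc40a1 drug differences were 0.42 and 0.03, 5 of 6 lay above 0 in home cage rats (median 0.15) and 1 of 6 in RPC rats (median -0.08), and none passed. Their mean level there ran from 8.58 to 9.49 in SAHA home cage rats, against 8.65 to 8.88 in vehicle home cage rats, and from 8.38 to 8.95 in SAHA RPC rats, against 8.62 to 9.29 in vehicle RPC rats. Of 11 choroid plexus markers 2, Ttr and Slc4a5, were tested in every region, and the others were below the detection filter. Of 12 markers of pericytes and smooth muscle 6 were tested in labelled DG, 5 of them above 0 in each behaviour (medians of 0.04 and 0.09). Of 6 globin and red cell genes 4 were tested in labelled DG, with median drug differences of 0.08 in home cage and 0.29 in RPC rats. The part of these cells in the differences of the members was not tested.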

How the data were processed

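RNA of 84 tissue samples was read on Illumina rat arrays of 22523 probes with GenomeStudio (version 2011.1), per the submitters' processing notes. The signal table gives each probe's intensity without normalization, as deposited by the authors, and a detection p-value. The deposited z-score values (unit score) were made by the authors per array, since z-scores of log10 intensity recomputed here differ from them by at most 0.013. A deposited detection p of 0.01 stands for 0 (29.84% of entries). Here the background was corrected with normexp fitted from detection p (nec, offset 16), followed by log2 and quantile normalization of all 84 arrays (limma 3.58.1, R 4.3.3). Probes detected on at least 7 of the 28 arrays of a region entered its test. Group means were fitted per region (lmFit, eBayes with trend), with Benjamini-Hochberg adjustment over all probes tested and a threshold of 0.05, two-sided. The fit was checked on simulated data.

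Genes were named through the platform annotation, updated by Entrez number. The 3 members and all gene lists were chosen with earlier results of these data known. From the thiamine, iron, lipid and barrier lists the rule names, for each comparison, the genes past the threshold, or else the 2 of smallest p, of which the text gives some; cell-type markers are named as examples chosen after their values were seen. Comparisons averaged over drug or behaviour and the looser detection limit were added after seeing the data. The labels do not tie arrays of different regions to 1 rat, and no slide is given, so that slides could not be tested as batches. The number of arrays limits the precision. The alternatives were other background correction, scaling, filters and weights, the deposited z-scores, a replicate block, 1 fit with rat as a random block (same-numbered arrays of a group taken as 1 rat), and fits without arrays.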

Additional observations from a re-analysis of the deposited data

Results flagged for a closer look

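Of 36 sets of 7 arrays (3 genes in 12 groups), 6 had an array that stood far from the others, by a gap to its nearest neighbour that was over Dixon's 95% limit as a share of the whole range. Chance alone gives about 1 in 20. For Slc19a3 these were SAHA RPC replicate 1 in labelled CA1, at 5.96 with the next array at 5.31, and vehicle RPC replicate 4 in labelled CA1, at 6.0 with the next at 5.68, both near background. For Slc40a1 they were SAHA HC replicate 6 in labelled CA1, the lowest at 6.79 with the next at 7.22; SAHA RPC replicate 6 in labelled CA1, the highest at 7.53 with the next at 7.15; and vehicle RPC replicate 7 in labelled DG, the highest at 7.60 with the next at 7.22. For Mfsd2a it was SAHA HC replicate 7 in labelled CA3, at 9.13 with the next at 8.88.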

How the results depend on the processing

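Of 476 values of 58 differences under the alternatives, 442 kept their direction and their side of the threshold (or, for differences without a test, moved by less than 1 SD). The threshold was newly passed with array weights by Slc40a1 between SAHA and vehicle home cage rats in labelled CA1 (0.64, adjusted p = 0.0267) and labelled CA3 (0.48, adjusted p = 0.00112), and in the mean over behaviour in labelled CA3 (0.32). The mean drug difference of Slc40a1 in labelled CA1 passed without background correction (0.29), with probes detected on every array (0.42), with array weights (0.46), without low-correlation arrays (0.48) and in 1 fit of all arrays with rat as a random block (0.42), and ran from 0.39 to 0.46 without single arrays. The mean maze difference of Mfsd2a in labelled CA1 passed with the stricter filter (0.17), array weights (0.16), the replicate block (0.17) and without low-correlation arrays (0.18). It ran from 0.15 to 0.19 without single arrays. In labelled CA3 the mean passed in 1 fit of all arrays (0.24), as did the vehicle difference (0.28). Both include the vehicle RPC array at 10.09. Without low-correlation arrays they were 0.05 and 0.02. The mean maze difference of Slc40a1 in labelled DG ran from -0.25 to -0.19 without single arrays.

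Signs turned for small differences. For Mfsd2a between SAHA and vehicle RPC rats in labelled CA1 they did with array weights (0.03) and without low-correlation arrays (0.03), and it ran from -0.04 to 0.04 without single arrays. The Slc40a1 maze mean turned in labelled CA1 with median scaling (0.07) and without low-correlation arrays (0.02), with -0.04 to 0.04 without single arrays, and in labelled CA3 on z-scores (-0.02), with array weights (-0.05) and without low-correlation arrays (-0.13), with -0.05 to 0.05 without single arrays. Without low-correlation arrays, the Slc40a1 maze difference of vehicle rats in labelled CA3 was 0.00 and the Mfsd2a interaction there 0.05 (-0.17 to 0.05 without single arrays). The Slc40a1 drug difference of RPC rats in labelled CA3 ran from -0.04 to 0.16. In labelled DG the interaction of Slc40a1 was 0.01 with median scaling (-0.05 to 0.06 without single arrays), that of Slc19a3 ran from -0.09 to 0.02, and the Mfsd2a drug mean from -0.02 to 0.02. Labelled CA3 less DG turned for Slc40a1 on z-scores (-0.09) and without low-correlation arrays (-0.01), and for Mfsd2a with median scaling (0.24), while it passed without low-correlation arrays (-0.11). The Slc19a3 drug differences in labelled DG were smaller without background correction (-0.30, -0.32, mean -0.31) and on z-scores (-0.35, -0.38, mean -0.36). The cause was not tested.

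The replicate numbers do not pair arrays: the mean correlation of same-numbered arrays of compared groups ran from -0.214 to 0.176, and the replicate block changed no other call. Between regions, the mean correlation of same-numbered arrays of a group ran from -0.087 to 0.13, against -0.029 to 0.016 for other numbers. The rat block in the fit of all arrays is therefore an assumption that these values do not bear out. Each member has 1 probe, and no other was tried. Without arrays of low correlation there was nothing to leave out in labelled DG, and with the strictest filter Slc19a3 was not tested. Signal near background limits the precision for Slc19a3.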
